A study of Mus musculus with 8 samples.

Results

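Endothelin, adrenomedullin and apelin signalling was described here through 10 genes of vasoactive peptides, the enzyme that activates one of them, their receptors and the endothelial nitric oxide synthase. The genes are Edn1, Ece1, Ednra, Ednrb, Adm, Calcrl, Ramp2, Apln, Aplnr and Nos3. They were taken by symbol, current or older, from the non-control probes of the arrays, and all 10 were found, on 12 of 55681 probes (10 of 24165 named genes). The rule uses names and no measured value.

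The RNA came from cells of E12.5 mouse embryos on the C57Bl/6J background, selected with magnetic beads for CD31 (PECAM-1). This surface protein joins endothelial cells to each other, and platelets and leukocytes bear it as well. There were 4 Gata2 +9.5 mutant embryos, labelled Gata2+9.5-/-, and 4 wild type littermates. All were bred from heterozygous parents, and the comparison asks what changes in these cells when the +9.5 enhancer in an intron of Gata2 is mutated in every tissue of the embryo. Liver and brain had been removed from each carcass, the rest was dissociated with collagenase, and each embryo gave 1 RNA sample and 1 one-colour array. Embryos 1 and 2 of each genotype belonged to litter 1 and embryos 3 and 4 to litter 2. The arrays of a litter shared a slide and a scan, so litter, slide and scan cannot be told apart.

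Endothelin-1 is made by endothelial cells as a long precursor, which the membrane protease ECE1 cuts to the active peptide. It constricts vessels through the receptor EDNRA on smooth muscle, and through EDNRB on endothelium it releases nitric oxide, which is made by NOS3. In embryos EDNRA also patterns the neural crest of the jaw and outflow tract, and EDNRB guides melanoblasts and enteric neuron precursors. Adrenomedullin relaxes vessels and is required for lymphatic and cardiac development, and its receptor is CALCRL held at the cell surface by the small membrane protein RAMP2. Apelin, a product of sprouting tip cells, acts on the receptor APLNR of venous and angiogenic endothelium. GATA factors, among them GATA2, are known activators of the Edn1 promoter in cultured endothelial cells.

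Because of that background, the RefSeq promoter of Edn1 is shown first (GRCm38.p6, chr13:42301226-42301505, plus strand, 250 bases before the annotated start site and 30 after it), with 1 GATA match and 1 match to the core of the hypoxia response element in capitals.
Edn1 promoter: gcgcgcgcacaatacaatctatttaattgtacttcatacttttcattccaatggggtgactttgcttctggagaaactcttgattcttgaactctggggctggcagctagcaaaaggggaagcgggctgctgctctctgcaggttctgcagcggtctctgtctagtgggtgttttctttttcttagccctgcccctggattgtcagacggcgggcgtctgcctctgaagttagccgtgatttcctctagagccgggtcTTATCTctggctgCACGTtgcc
The GATA search took AGATAA or its variant AGATAG, together with TGATAA or its variant TGATAG, on both strands. The hypoxia search took ACGTG on both strands, and the 2 kinds of match did not overlap. The Edn1 match to GATA is on the minus strand and begins at base 9 counted from the start site, and the hypoxia match, also on the minus strand, begins at base 22. Of 32851 RefSeq promoters of the same length, 28.7% hold a GATA match and 18.5% a hypoxia match. Promoters of 7 of the 10 genes were in the table. None of the 9 promoters of Ece1 (4), Ednra, Ednrb, Adm, Calcrl and Apln held these GATA letters. A hypoxia match was present in 1 of the 4 Ece1 promoters, on both strands of the same 6 bases.

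Ednrb and Nos3 were each read by 2 probes, and Edn1, Adm and Aplnr are those whose values the results below turn on. The first 30 bases of each 60-base probe are given here in lower case, since they show which stretch of the transcript carries each measurement.
Edn1 probe: cagtaaaaatatgttcccgtatgtattgta
Adm probe: taagggcattttaaagtgattatattgtca
Aplnr probe: gggcctttgtgagctggacatgggtgtgca
Ednrb probe, brighter: aaggacgccccagatcttcaattttaagtt
Ednrb probe, dimmer: tataccctgatgacctgcgaaatgctcagg
Nos3 probe, brighter: tgtagactccctttaactctctctctggag
Nos3 probe, dimmer: gatcagcaacgctaccacgaggacattttc
Their mm9 positions, per the file headers, are chr13:42403101-42403160 for Edn1, chr7:117773088-117773147 for Adm and chr2:84979638-84979697 for Aplnr, all on the plus strand. The Ednrb probes lie at chr14:104214484-104214543 and chr14:104220870-104220929 on the minus strand, 6326 bases apart. The Nos3 probes lie at chr5:23890038-23890097 and chr5:23889636-23889695 on the plus strand, 342 bases apart. No exon annotation of mm9 was used here. The dimmer Nos3 probe and the Edn1 probe each stood at 10 spots of every array, the others at 1 spot. The brighter probe of a pair stood for the gene.

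All values below are log2 signals relative to the 75th percentile of the array, and a difference is mutant minus wild type unless litters are named. Each array held 62976 spots. Well above background were 74.9% to 92.0% of the non-control spots. The 75th percentile of an array's linear signal lay between 996 and 2481. The number of arrays limits the precision. Wild type 2, wild type 3 and mutant 4 stood apart on the first principal component (58.9% of the variance), at 99.8, 158.6 and 124.2 against -128.0 to 23.2 for the other arrays. Gata2 (probe at chr6:88156362-88156421, mm9, which reads the transcript and not the enhancer) was at 2.00, 1.66, 0.89 and 1.42 in wild type embryos 1 to 4 and at -1.24, -0.15, -1.27 and -1.07 in the mutants. The genotypes did not overlap. Gata2 was 5.36-fold lower in the mutants (-2.42 ± 0.39, SE; exact permutation p = 0.0286, the smallest that 70 arrangements allow), with a limma adjusted p of 0.0859 over all features, above the threshold of 0.05. It passed in 3 of 21 other settings: with a filter on all 8 arrays (0.0305), with an intensity trend (0.0111) and with array weights (0.0170). With array weights 47.8% of all features passed. Otherwise its limma adjusted p stayed above the threshold, at 0.0643 with litter as a block and 0.178 with quantile normalization. The highest was 0.854. Over the settings the difference ran from -2.77 to -2.16. The selected cells had endothelial transcripts: all 18 pan-endothelial markers, Cdh5, Kdr and Pecam1 among them, were well above background on every array, and none differed between genotypes past the threshold. Markers of other cells were detected too: 9 of 9 mesenchymal, 9 of 9 macrophage and 8 of 9 erythroid markers were well above background on every array. So were 7 of 7 cardiomyocyte and 7 of 7 epithelial markers. Most features met this mark, since 31589 remained with a filter on all 8 arrays, against 40235 in the reported fit. Such counts do not by themselves show that a cell type was present. In samples that may be mixed, fewer cells of a type and less RNA per cell cannot be told apart.

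None of the 10 genes differed between mutant and wild type cells past the adjusted threshold, and none had all mutant values on one side of the wild type values. The largest differences were those of the apelin receptor gene Aplnr (0.61 ± 0.55, SE, 1.53-fold higher) and of Adm (0.57 ± 0.44, SE, 1.49-fold higher). Both had a higher mutant mean in each litter but lay within the spread between embryos, which includes the difference between litters. With litter as a block their SEs were 0.29 and 0.31, and the limma adjusted p was 0.560 for each. The other 8 genes differed by -0.19 to 0.28. Over all 40235 features 18 passed (0.0447%), all lower in mutants, and a count of 0 of 10 lies near this background. All 10 genes were well above background on all 8 arrays, and no spot of theirs was saturated.

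**Figure D1:**
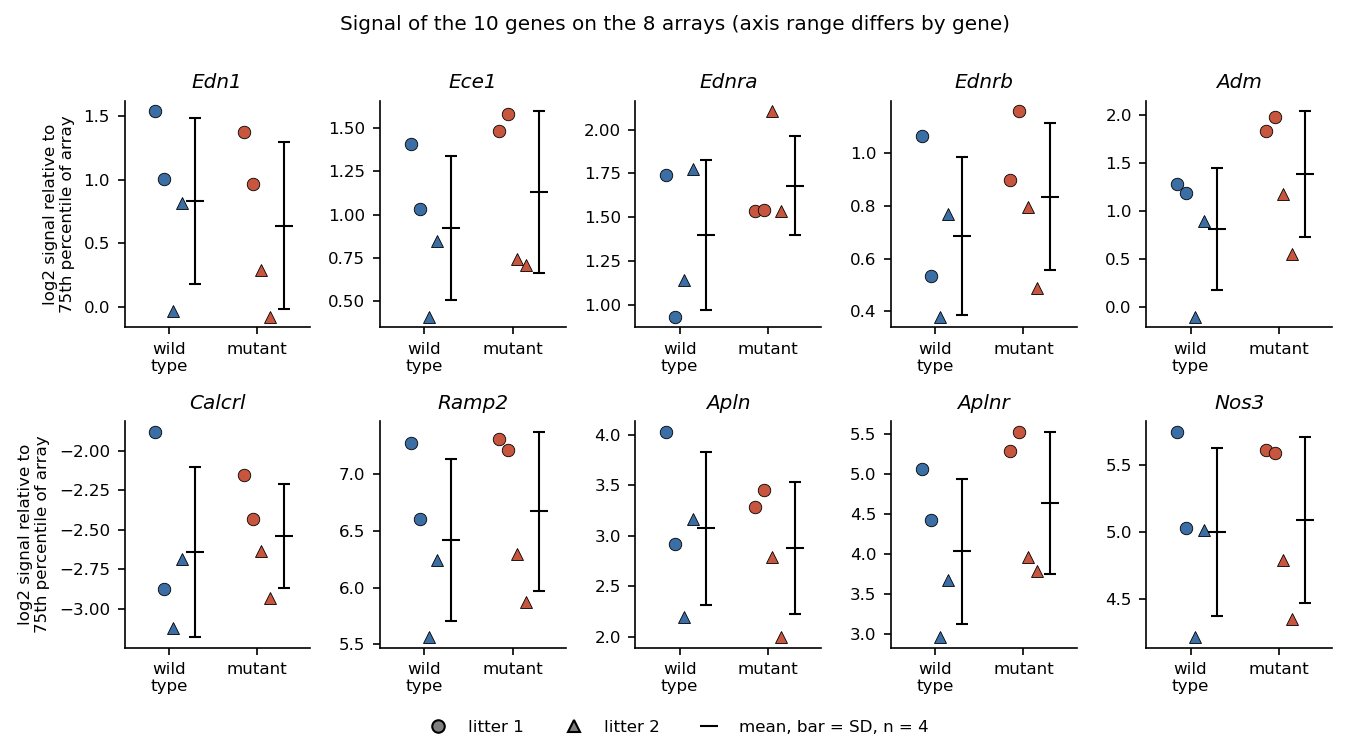
Log2 signal of each gene relative to the array's 75th percentile (vertical axes, range set per gene) for wild type (blue) and mutant (red) embryos, with circles for litter 1 and triangles for litter 2. Black marks are the mean and SD of 4 embryos. The genotypes overlap for every gene, while the triangles lie under the circles for Edn1, Ece1, Adm, Ramp2, Aplnr and Nos3.

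Among the peptides, Edn1, the precursor of endothelin-1, was at 1.54, 1.01, -0.03 and 0.81 in wild type embryos 1 to 4 and at 1.37, 0.96, 0.29 and -0.08 in the mutants. Both genotypes spanned nearly the same range, with litter 1 above litter 2 in each. The means were 0.83 ± 0.65 (SD, n = 4) and 0.64 ± 0.65 (SD, n = 4), a difference of -0.19 ± 0.45 (SE) with a 95% interval of -1.18 to 0.79 and a limma adjusted p of 0.83. The exact permutation p was 0.657. The interval spans both directions, so these arrays are compatible with no change and with a change of either sign inside it. By litter the difference was -0.10 (litter 1) and -0.29 (litter 2).

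Adm, the adrenomedullin precursor, was at 1.29, 1.19, -0.11 and 0.89 in wild type cells and at 1.84, 1.98, 1.18 and 0.55 in mutant cells. The mutants of litter 1 held the highest 2 values of the 8, and wild type 3 lay below all other embryos. The means were 0.82 ± 0.64 (SD, n = 4) and 1.39 ± 0.66 (SD, n = 4), a difference of 0.57 with a 95% interval of -0.41 to 1.55, an adjusted p of 0.717 by limma and an exact permutation p of 0.286. It was 0.67 in litter 1 and 0.47 in litter 2. Without wild type 3 the difference was 0.26. With litter as a block its adjusted p was 0.560.

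Apln, the apelin precursor, was at 4.03, 2.92, 2.19 and 3.16 in wild type cells and at 3.28, 3.45, 2.79 and 2.00 in mutant cells. Wild type 1 was the highest and mutant 4 the lowest, and the ranges overlapped for most of their length. The difference was -0.19 ± 0.47 (SE), with a 95% interval of -1.23 to 0.84 and a limma adjusted p of 0.837. Edn1 and Apln were the 2 genes with a lower mutant mean, and for both the difference turned positive without wild type 1 (0.04 for Edn1 and 0.12 for Apln) and without mutant 4 (0.04 and 0.10).

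Ece1, the protease that releases endothelin-1 from its precursor, was at 1.41, 1.03, 0.41 and 0.85 in wild type cells and at 1.49, 1.58, 0.75 and 0.71 in mutant cells. In both genotypes the embryos of litter 1 were above those of litter 2. The difference was 0.21 ± 0.37 (SE), with a 95% interval of -0.61 to 1.02 and an adjusted p of 0.784 by limma.

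Of the endothelin receptors, Ednra was at 1.74, 0.93, 1.14 and 1.78 in wild type cells and at 1.53, 1.54, 2.10 and 1.54 in mutant cells. Mutants 1, 2 and 4 had nearly equal values and mutant 3 lay above them and above every wild type embryo. The difference was 0.28 ± 0.34 (SE), with a 95% interval of -0.48 to 1.04 and a limma adjusted p of 0.725. Smooth muscle and mesenchyme, which carry this receptor in the embryo, had markers well above background on every array (10 of 10 and 9 of 9). The medians of the smooth muscle list ran from 0.17 to 0.72 in wild type and from -0.43 to 1.09 in mutant cells, and those of the mesenchyme list from 1.91 to 4.04 and from 2.49 to 3.44. Their part in the Ednra signal was not tested.

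Ednrb, the receptor of endothelium and neural crest, was at 1.07, 0.53, 0.38 and 0.77 in wild type cells and at 0.90, 1.16, 0.80 and 0.49 in mutant cells on its brighter probe. On the other probe the values were 0.86, 0.11, -0.06 and 0.78 in wild type and 0.54, 0.99, 0.98 and 0.30 in mutant cells. The genotypes overlapped on both probes, and wild type 2 and wild type 3 were low on both. The difference was 0.15 ± 0.32 (SE) on the first probe, with a limma adjusted p of 0.821, and 0.28 ± 0.35 (SE) on the second, with an adjusted p of 0.729 over all probes. Of 12 markers of neural crest and melanoblasts 10 were well above background on every array, and their list medians ran from -2.70 to -1.05 in wild type and from -2.44 to -1.46 in mutant cells. Their part in the Ednrb signal was not tested.

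For the adrenomedullin receptor, Calcrl, its ligand-binding subunit, was at -1.88, -2.88, -3.12 and -2.69 in wild type cells and at -2.15, -2.43, -2.63 and -2.93 in mutant cells. The mutant values lay inside the wild type range. The difference was 0.10 ± 0.37 (SE), with a 95% interval of -0.71 to 0.92 and a limma adjusted p of 0.892.

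Ramp2, which carries CALCRL to the surface and gives it its affinity for adrenomedullin, was at 7.27, 6.61, 5.56 and 6.24 in wild type cells and at 7.31, 7.21, 6.30 and 5.87 in mutant cells. Every embryo of litter 1 was above every embryo of litter 2, whatever its genotype. The difference between genotypes was 0.25 ± 0.47 (SE), with a 95% interval of -0.78 to 1.29 and a limma adjusted p of 0.793. Its linear signal ran from 90661 to 181833 and was saturated on no array.

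Aplnr, the apelin receptor, was at 5.07, 4.42, 2.96 and 3.68 in wild type cells and at 5.28, 5.53, 3.96 and 3.79 in mutant cells. Within each litter both mutants were above both wild type embryos, but the mutants of litter 2 were below the wild type embryos of litter 1. How many of all features separate in this way was not counted, so the pattern is a description only. The means were 4.03 ± 0.91 (SD, n = 4) and 4.64 ± 0.89 (SD, n = 4), the widest spreads of the 10 genes. The difference of 0.61 had a 95% interval of -0.61 to 1.83, a limma adjusted p of 0.717 and an exact permutation p of 0.371. It was 0.66 in litter 1 and 0.56 in litter 2, and with litter as a block the interval narrowed to -0.05 to 1.27, with an adjusted p of 0.560. Without wild type 3 the difference was 0.25.

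Nos3, the endothelial nitric oxide synthase, was at 5.75, 5.03, 4.22 and 5.02 in wild type cells and at 5.61, 5.59, 4.79 and 4.36 in mutant cells on its brighter probe. On the probe printed at 10 spots it was at 3.97, 3.06, 2.60 and 3.54 in wild type and at 3.64, 3.48, 3.12 and 2.51 in mutant cells. The genotypes had nearly the same mean on both. The difference was 0.08 ± 0.44 (SE), with a 95% interval of -0.87 to 1.04 and a limma adjusted p of 0.925, and -0.11 ± 0.40 (SE) on the other probe, so the sign depended on the probe. Nos3 was also the single gene of the 10 whose difference had opposite signs in the litters, 0.21 and -0.04. The other 9 had the same sign in both, as 76.7% of all features did.

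On the scaled values, the spread between embryos was larger than that between spots. The 10 spots of Edn1 had SDs of 0.071 to 0.162 within an array and those of the Nos3 probe 0.026 to 0.104. The SDs between the 4 wild type embryos were 0.65 and 0.59 for the same probes. These also hold the differences in scaling between arrays, which spots of the same array share. Before scaling, the linear signals of these embryos lay closer together. They were 2891, 2874, 2439 and 2264 for Edn1 and 15797, 11938, 15154 and 15015 for the Nos3 probe. How much of the spread between embryos the scaling added was not tested. Of the 10 genes 8 had a higher mean in mutants, against 52.4% of all features, and the median difference was 0.18 against 0.05 over all features. This count moved with the scaling: it was 10 of 10 with arrays centred on their median, 6 of 10 with quantile normalization and 2 of 10 with arrays centred on the 18 pan-endothelial markers, whose own median difference was 0.23. The mutant means of Adm and Aplnr were the higher ones under each of these scalings, but with arrays centred on the pan-endothelial markers the differences were 0.22 and 0.26, and with quantile normalization they were 0.42 and 0.21. When limma weighted the arrays by their quality, Adm (0.93, adjusted p = 0.0437) and Aplnr (1.16, adjusted p = 0.0463) passed the threshold, but so did 19249 of all 40235 features (47.8%). At an unadjusted p under 0.05, 0 of the 10 genes and 3.05% of all features passed without weights, and with litter as a block 0 of the 10 and 4.86%. In the authors' deposited table the log2 fold changes, mutant over wild type, were 0.84 for Adm, 0.88 for Aplnr and 0.07 for Edn1, with adjusted p-values of 0.624, 0.624 and 0.942.

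**Figure D2:**
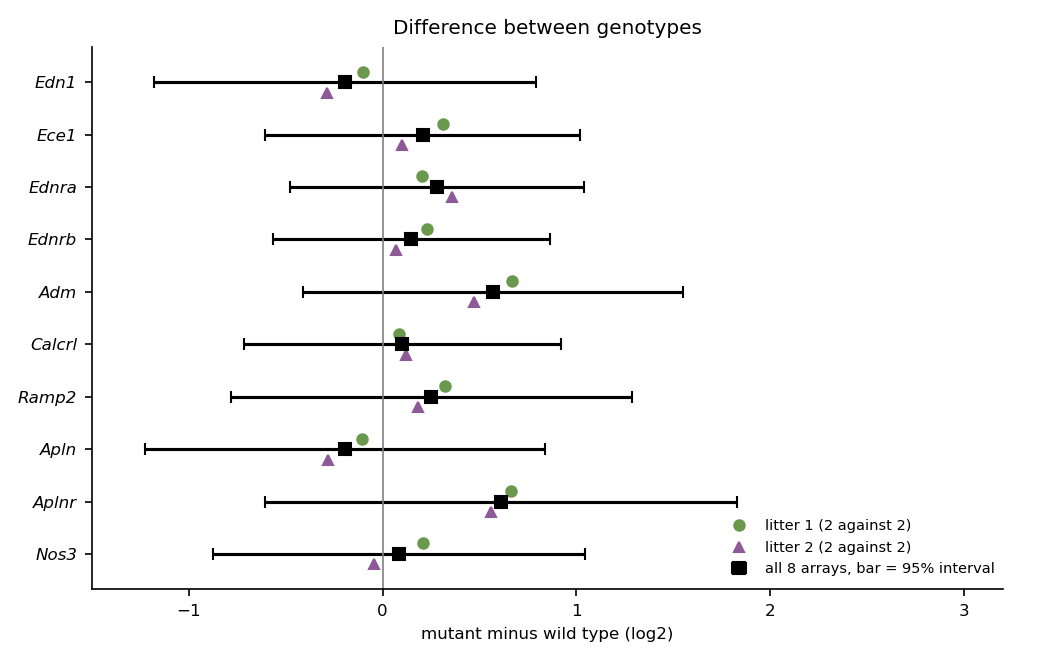
Mutant minus wild type difference on the log2 scale for each gene, with the 95% interval from all 8 arrays (squares and bars) and the difference within litter 1 (circles) and litter 2 (triangles). The intervals are from the fit without litter as a block. Every interval includes 0, and Adm and Aplnr lie farthest to the right in both litters.

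The embryos were also compared between the 2 litters. Aplnr was 2.79-fold lower in litter 2 (-1.48 ± 0.29, SE, with genotype in the model; limma adjusted p = 0.0279), at 5.08 ± 0.47 (SD, n = 4) in litter 1 and 3.60 ± 0.44 (SD, n = 4) in litter 2. It was the single gene of the 10 past the threshold, which 0.895% of all features passed in that direction and 4.91% in either. Edn1, Ece1, Adm, Ramp2 and Nos3 also had all 4 values of litter 2 below all 4 values of litter 1, which makes 6 of 10 genes, against 3.57% of all features (14.1% in either direction). For each of the 6 the exact permutation p was 0.0286, the smallest 4 against 4 arrays allow. Apart from Aplnr they did not pass the adjusted threshold.

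The differences that did not pass it were -1.11 ± 0.30 (SE) for Ramp2, with an adjusted p of 0.0651, -0.97 ± 0.31 (SE) for Edn1, with 0.0974, and -0.94 ± 0.31 (SE) for Adm, with 0.109. Nos3 stood at -0.90 ± 0.31 (SE) and Ece1 at -0.70 ± 0.26 (SE). Apln (-0.88 ± 0.37, SE), Calcrl (-0.51 ± 0.31, SE) and Ednrb (-0.31 ± 0.27, SE) had lower means in litter 2 with overlapping values. Ednra, at 0.20 ± 0.31 (SE), was the single gene with a higher mean in litter 2. The dimmer Nos3 probe (-0.60 ± 0.34, SE) and the second Ednrb probe (-0.13 ± 0.33, SE) had the same signs as the brighter ones, and the dimmer Nos3 probe overlapped between litters.

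On the linear scale before any scaling, the Aplnr signal was 30713 to 47024 on the arrays of litter 1 and 16462 to 21451 on those of litter 2, so these did not overlap either. Nor did those of Ramp2 (139216 to 181833 against 90661 to 117271) and of the brighter Nos3 probe (46805 to 55962 against 31737 to 46157). The linear Edn1 signal was 1985 to 2968 in litter 1 against 1469 to 2439 in litter 2, which overlap. Those of Adm (2432 to 4081 against 2272 to 3097) and Ece1 (2646 to 3204 against 2296 to 3291) overlap as well. The call for Aplnr was lost without any one of 6 embryos (wild type 1 and 3 and mutants 1 to 4), with differences of -1.34 to -1.52 and adjusted p-values of 0.0507 to 0.116. With the 3 arrays that stood apart left out together, Aplnr (-1.42), Ramp2 (-0.99) and Nos3 (-0.78) passed, as did 6.31% of all features in that direction. The sizes also depended on the scaling. Quantile normalization gave -0.89 for Aplnr (limma adjusted p = 0.0407), -0.55 for Ramp2 and -0.31 for Nos3. All but Calcrl (-1.05) and Ednra (0.54) were smaller in size than in the reported fit. The median of the signalling genes was -0.50, and -0.43 with normexp before it. With arrays centred on their median, Aplnr was at -1.95 and the median of the signalling genes at -1.36.

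**Figure D3:**
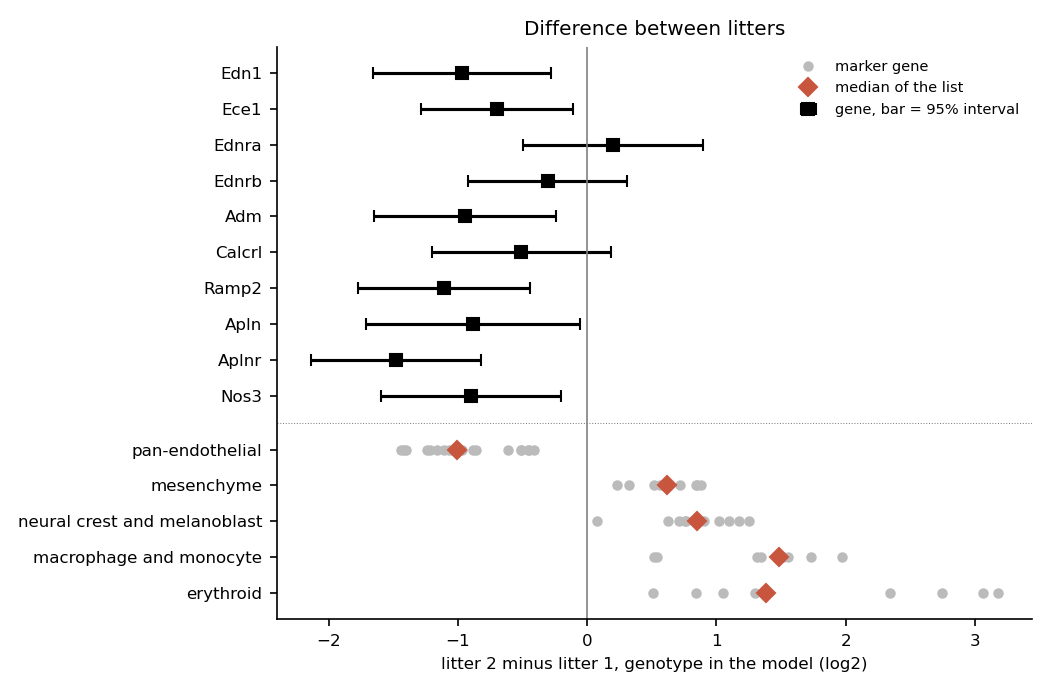
Litter 2 minus litter 1 on the log2 scale, with genotype in the model, for the 10 genes (squares, bars are 95% intervals) and for the markers of 5 cell types (grey points, with the list median as a diamond). Aplnr, at -1.48, is the lowest of the 10 genes and Ednra the single one above 0, and the pan-endothelial markers lie on the same side as the other 9 genes.

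Cell type markers moved with the litters. All 18 pan-endothelial markers had lower means in litter 2, with a median of -1.01, 9 of 18 not overlapping and 4 past the threshold, while the median of all features was 0.32. The 9 macrophage markers (median 1.49, 6 past the threshold), the 9 erythroid markers (1.39, 4 past it), the 12 markers of neural crest and melanoblasts (0.85) and the 9 of mesenchyme (0.62) all had higher means in litter 2. The median of the 10 signalling genes was -0.89. With each array centred on the pan-endothelial list, the difference of Aplnr between litters was -0.44 (adjusted p = 0.105) and that of Ramp2 -0.07, those of Edn1, Adm, Apln and Nos3 ran from 0.06 to 0.15, Ece1 and Calcrl were at 0.34 and 0.53, and the median of the 10 genes was 0.14. On that scale Ednra (1.24, adjusted p = 0.00382) and Ednrb (0.73, adjusted p = 0.0426) were higher in litter 2 past the threshold, as were 46% of all features, whose median was 1.36.

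**Figure D4:**
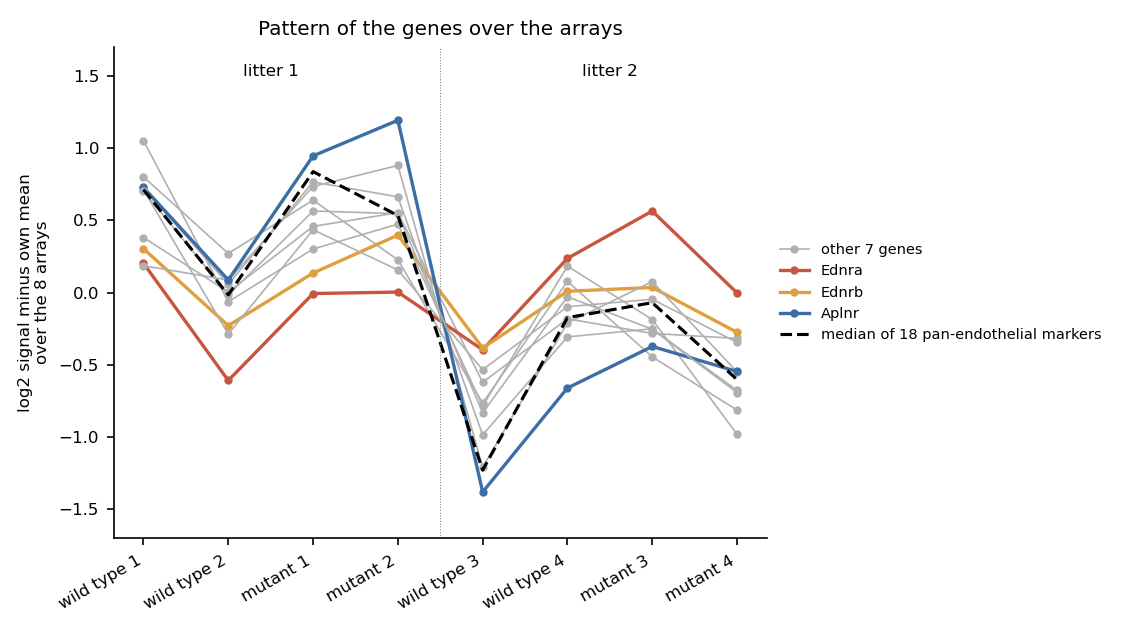
Log2 signal of each gene minus its own mean over the 8 arrays (vertical axis), with arrays ordered by litter and genotype. Lines join the values of 1 gene and carry no order, and the dashed line is the median of 18 pan-endothelial markers treated the same way. Aplnr spans the widest range, and Ednra is highest on mutant 3, where the dashed line lies just under 0.

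The difference between genotypes was not shown to depend on the litter. The interaction term ran from -0.25 for Nos3 to 0.16 for Ednra, with 95% intervals reaching from -2.00 to 1.73 over the 10 genes. Limma's adjusted p was 1 for each of them. Over all features 0 passed (490, or 1.22%, at an unadjusted p under 0.05).

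Likeness of pattern was measured as the mean absolute difference over the 8 arrays between log2 values centred on their own means, so that a small value means that 2 genes vary together. These arrays share the litter grouping and the scaling, and the values are a description. Among the 10 genes Ramp2 and Nos3 were the closest pair (0.11), followed by Ece1 with Nos3 (0.15) and Edn1 with Nos3 (0.16). The receptor genes Aplnr and Ednra were the farthest apart (0.84). Of 18365 symbols searched, the closest to Aplnr was Cdh5 (0.063), the endothelial cadherin, and then 4932431P20Rik (0.064). The closest to Apln was Ddah1 (0.089), an enzyme that degrades inhibitors of nitric oxide synthase, then Fam167b (0.10). Ramp2 was nearest to Prex1 (0.049) and Arf5 (0.052), and Nos3 to Smagp (0.052) and Sparcl1 (0.053). For Edn1 the nearest were Tdrp (0.10) and Cish (0.12), and for Adm they were Dnaja4 (0.073) and Spock2 (0.10). Ece1 was nearest to Chchd7 (0.045) and Aph1a (0.050), and Calcrl to Camk2d (0.052) and Gm3099 (0.067). The nearest to Ednra were Csrnp1 (0.045) and Senp6 (0.057), and to Ednrb they were Plcl1 (0.043) and Otub1 (0.049). Genes that vary little can reach a small value more easily, and the mean absolute deviation was 0.22 for Ednrb and 0.74 for Aplnr.

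The other genes of these pathways were examined by list, and none of the genes in the 10 lists passed the adjusted threshold between genotypes. Of 6 other endothelin genes 4 had higher and 2 lower mutant means, with a median difference of 0.04. Furin, the protease that first cuts the endothelin precursor, was at 1.01 ± 0.33 (SD, n = 4) in wild type cells and 1.36 ± 0.40 (SD) in mutant cells (difference 0.35 ± 0.38, SE; mutant 4 had no value for it). Kel, a red cell protease that processes endothelins, was at -0.73, -1.30, 1.17 and 2.48 in wild type and at -0.47, -0.59, 2.24 and 2.34 in mutant cells. It was higher in litter 2, by 2.83 (limma adjusted p = 0.0118), as erythroid markers were.

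Of 8 other adrenomedullin and CGRP genes 2 had higher and 6 lower mutant means, with a median of -0.49. Ramp3, a partner of CALCRL like Ramp2, was at 2.23 ± 0.51 (SD, n = 4) and 1.91 ± 0.51 (SD, n = 4), and Ackr3, which takes up adrenomedullin, at 1.23 ± 0.75 (SD, n = 4) and 1.93 ± 0.38 (SD, n = 4). Their differences, -0.32 ± 0.39 (SE) and 0.70 ± 0.42 (SE), were within the spread between embryos. Of 7 other apelin and angiotensin genes 3 had higher and 4 lower means, with a median of -0.47. Ace, the angiotensin-converting enzyme, differed by -0.47 ± 0.46 (SE), and Agtrap, a binding partner of the angiotensin receptor, by 0.03 ± 0.31 (SE). Both lists had positive median litter differences, 0.85 and 1.05, unlike the 10 genes.

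Of 7 natriuretic peptide genes 6 had higher and 1 lower mutant means, with a median of 0.03. The receptor genes Npr2 (0.43 ± 0.37, SE) and Npr3 (0.48 ± 0.43, SE) were measured on every array. Of 10 other vasoactive peptides and receptors 5 were on each side, with a median of -0.01. Nts, the neurotensin precursor, differed by -0.19 ± 0.39 (SE) and Uts2r, the urotensin receptor, by 0.40 ± 0.44 (SE).

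Downstream, 15 of 21 nitric oxide and cGMP genes had higher mutant means, with a median of 0.26, and 18 of 21 had lower means in litter 2. Of all features 52.4% had higher mutant means, with a median difference of 0.05. Hsp90aa1, which encodes a chaperone that binds and activates NOS3, differed by 0.58 ± 0.38 (SE) between genotypes. Of 18 G protein and desensitisation genes 15 had higher mutant means, with a median of 0.23. Gnas, the stimulatory alpha subunit used by the adrenomedullin receptor, differed by 0.40 ± 0.40 (SE), and Gnai2, an inhibitory subunit of the kind APLNR couples to, by 0.39 ± 0.56 (SE). With quantile normalization the medians of both lists were -0.01 and -0.02, so their sign rested on the scaling.

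Of 8 genes that depend on Ednra in the pharyngeal arches 5 had higher and 3 lower mutant means, with a median of 0.20. Gsc, a homeobox gene of the lower jaw, was at -2.45, -3.41, -3.16 and -2.76 in wild type and at -1.97, -2.13, -2.22 and -2.33 in mutant cells. These did not overlap, as for 1.04% of all features, and the difference of 0.78 ± 0.33 (SE) had a limma adjusted p of 0.717. Among 8 known regulators of the 10 genes 7 had higher mutant means and Gata2 was the one with a lower mean. Jun, which acts with GATA factors at Edn1, differed by 0.26 ± 0.37 (SE), and Epas1, the endothelial hypoxia-inducible factor, by 0.39 ± 0.44 (SE). Of 15 hypoxia and glycolysis genes, the set to which Adm belongs by its known regulation, 14 had higher mutant means, with a median of 0.46. Over all features 52.4% had higher mutant means. The median of all features was 0.05, and 0.16 with a filter on all 8 arrays, which all 15 genes met. The median of the 15 genes was 0.19 with quantile normalization and 0.11 with arrays centred on the pan-endothelial markers. Whether the shift is particular to this list was not tested. The glycolytic genes Ldha (0.36 ± 0.39, SE) and Aldoa (0.46 ± 0.38, SE) are examples.

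**Figure D5:**
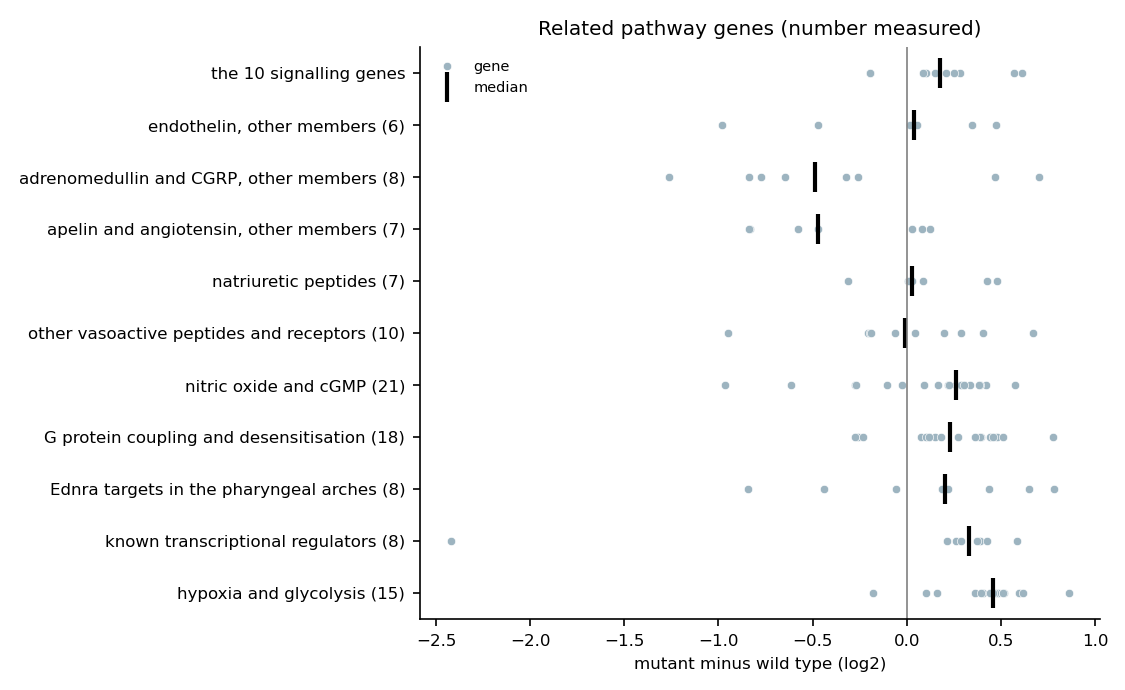
Mutant minus wild type difference on the log2 scale for each measured gene (points) of the 10 signalling genes and of 10 related lists, with the median of each list as a black bar. The point at -2.42 in the list of regulators is Gata2. The other points lie between -1.26 and 0.86.

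Among markers of other cells that bear CD31, those of platelets and granulocytes held calls between genotypes. All 12 platelet and megakaryocyte markers had lower mutant values without overlap, with a median of -2.65 and 3 past the threshold. Over all features 0.534% were lower in mutants without overlap and 0.0447% passed the threshold. The list medians of the platelet markers ran from 1.03 to 1.74 in wild type and from -1.78 to -0.87 in mutant cells. Of 8 granulocyte markers 7 had lower and 1 a higher mutant mean, with a median of -1.71. Of these 8, 4 were lower without overlap and 3 were past the threshold. With litter as a block all 6 of these calls were lost, at adjusted p-values of 0.0531 to 0.0643. Of 9 macrophage and monocyte markers 0 passed (limma, also 0 at an unadjusted p under 0.05) and none was without overlap, with a median of -0.22. Endothelial markers had higher mutant means for 13 of 18 pan-endothelial, 9 of 9 arterial and 4 of 5 venous genes, with none past the threshold. Their medians were 0.23, 0.32 and 0.33. The part of these cells in the 10 genes' values was not tested.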

How the data were processed

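RNA of CD31-selected cells from 8 embryos was hybridised on 8 one-colour Agilent arrays, with cRNA made from 0.1 ug of RNA per the labels' protocols. The deposited scanner files hold spot intensity on a linear scale, background-subtracted and detrended by Feature Extraction 10.7.3.1 with mm9 annotation per the file headers. The authors' deposited table holds log2 values, log2 fold changes, a t score and p-values for each probe, and the submitters' processing notes name limma without a version. Its values served as an alternative.

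Here log2 of the processed intensity minus the array's 75th percentile was taken. Control and outlier spots were left out and the spots of a probe averaged. Probes well above background on at least 4 arrays and with 3 values per group entered the tests, each symbol through its brightest probe (40235 features). Genotypes were compared with limma 3.58.1 under R 4.3.3 (lmFit and eBayes). The tests were two-sided, with p-values adjusted by Benjamini-Hochberg across the 40235 features and a threshold of 0.05. Litter was tested with genotype in the model, and their interaction apart. Exact permutation tests used 70 arrangements without regard to litter. The steps were also run on simulated data. There the genotype comparison recovered 0 of 67 features changed by 1 log2 unit, 31.3% of those changed by 2 and 69.7% of those changed by 3. The litter comparison recovered 0, 20.9% and 62.1%. Changes of 1 log2 unit thus did not reach the threshold in the simulation, and a missing call does not show that a gene was unchanged. Other scalings, filters, blocks and left-out arrays were tried.

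Same-numbered embryos correlated at r = 0.62, -0.03, -0.10 and -0.16 in their deviations from the genotype means, so the numbers do not pair them. The litter is shared per the labels. Litter as a block lowered the SE of each of the 10 genes, and only some of those results are given above. With it none of the 10 genes passed, and their lowest limma adjusted p was 0.560. The members and lists were chosen with earlier results of these data known. The naming rule takes the 10 genes, Gata2, and of each list the genes past the threshold, else up to 3 without overlap, else the 2 brightest, plus the 2 nearest symbols to each gene. One gene that this rule names is not reported here. Apela (not matched on the array) and Bdkrb1, Uts2, Tacr1 and Avpr1a (below the filter) were not analysed here.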

Additional observations from a re-analysis of the deposited data

Results flagged for a closer look

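Ednra on mutant 3 was at 2.10, while the other 3 mutants lay between 1.53 and 1.54. The gap between mutant 3 and the nearest of the others made up 0.98 of the whole range of the mutants, above Dixon's 95% critical value for 4 arrays. It was the single such case among 22 groups of 4 arrays (the 10 genes and Gata2 in both genotypes), and chance gives about 1 in 20. The linear signal of Ednra on that array was 5885, the highest of the 8, next to 5484 on wild type 3.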

How the results depend on the processing

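No alternative but array weights brought any of the 10 genes past the threshold between genotypes, and their adjusted p-values otherwise stayed at or above 0.309. The number of features past it, 18 in the reported fit, depended on the setting: 0 with litter as a block, 0 with the sample number as a replicate block (which changed no call among the 10 genes), 1 with quantile normalization, 5 with normexp and quantile normalization, 0 with arrays centred on the pan-endothelial list, 8 without the filter on dim probes, 33 with an intensity trend, 19249 with array weights (2 of the 10 genes), 52 with the authors' deposited values, 0 without wild type 2, wild type 3 and mutant 4, and 0 to 24 with single embryos left out. With 4 arrays a genotype the design leaves wide intervals. All 10 genes were well above background on every array, but Calcrl was dim, with a linear signal of 189 to 285. Centring moved the median difference of all features from 0.05 to 0.32 on the array median and to -0.30 on the pan-endothelial list.

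Signs between genotypes turned as follows. With arrays centred on the median, and likewise in the authors' deposited values, Edn1 was at 0.071 and Apln at 0.070, and with array weights at 0.28 and 0.37. Quantile normalization gave -0.16 for Ramp2 and -0.33 for Nos3 (-0.16 and -0.39 after normexp). Centred on the pan-endothelial list, Ece1 was at -0.14, Ednra -0.070, Ednrb -0.20, Calcrl -0.25, Ramp2 -0.10 and Nos3 -0.27. The mean of both probes gave -0.011 for Nos3. Without the 3 arrays that stood apart, Ednra was at -0.033, Calcrl -0.13 and Nos3 -0.052. With single embryos left out, Edn1 ran from -0.48 to 0.044, Apln from -0.49 to 0.12, Calcrl from -0.059 to 0.36, Ramp2 from -0.034 to 0.54 and Nos3 from -0.18 to 0.33. Turns of list medians were 0.19 for other vasoactive genes (0.13 after normexp), -0.014 for nitric oxide and cGMP, -0.022 for G proteins (-0.029 after normexp) and -0.081 for the regulators (-0.10 after normexp) with quantile normalization. Centred on the pan-endothelial list they were -0.31 for endothelin, -0.32 for natriuretic peptides, -0.087 for nitric oxide and cGMP, -0.12 for G proteins, -0.15 for the Ednra targets and -0.019 for the regulators.

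Between litters, 1 of the 10 genes passed in the reported fit (1976 of all features), 2 with pan-endothelial centring (18631), 3 without the 3 arrays that stood apart (5887), and 0 to 2 with single embryos left out (4 to 4058). Leaving out arrays in the litter comparison was chosen after seeing the data. Centring on the median gave -0.27 for Ednra, and normexp with quantile normalization 0.021 for Ednrb. Pan-endothelial centring gave 0.065 for Edn1, 0.34 for Ece1, 0.73 for Ednrb, 0.090 for Adm, 0.53 for Calcrl, 0.15 for Apln and 0.13 for Nos3. Beyond the construction of each setting, the cause was not tested.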
